A study of Mus musculus with 61 samples.

Results

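The cytosolic heat shock chaperones were followed as 10 genes chosen by symbol, namely the transcription factor gene Hsf1, the HSP70 genes Hspa8, Hspa1a and Hspa1b, the HSP110 gene Hsph1, the J protein genes Dnaja1 and Dnajb1, the HSP90 genes Hsp90aa1 and Hsp90ab1, and the small heat shock protein gene Hspb8. All 10 were found among 24551 genes counted in oocytes and embryos at successive ages and among 22911 genes counted in embryos of different Klf17 genotypes. All 10 also passed the filter on low counts, which left 16234 and 16694 genes for testing. Hspa1a, Hspa1b and Hspb8 had few reads in most of the window groups and passed it through the groups in which they were highest.

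The study used SLAM-seq, in which cells take up the uridine analogue 4-thiouridine (4SU), polyadenylated RNA is alkylated with iodoacetamide so that labelled bases can be read as T-to-C changes, and libraries are sequenced. Wild type MII oocytes, which are eggs arrested in the second meiotic metaphase, and wild type embryos made by in vitro fertilisation were exposed to 2 mM 4SU for 6 h, with 10 oocytes or embryos per library. Embryo groups are named by their labelling window in hours post insemination (hpi), and MII and each of the 9 windows, from 0-6hpi to 90-96hpi, had 3 libraries. A second set was collected at the stage that the design text abbreviates as M2C and held 3 wild type controls (ctrl), 3 Klf17 KO, 3 Klf17 maternal KO (mKO) and 2 Klf17 paternal KO (pKO) libraries, all with 4SU. All embryos came from superovulated females, and in the 0-6hpi window the sperm and the cumulus-oocyte complexes were exposed to 4SU too. The labels do not say whether libraries of a group came from separate females or from separate fertilisations, so p-values measure only the spread between these libraries, which may be technical.

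Heat shock chaperones bind unfolded or partly folded proteins and release them in cycles driven by ATP. HSP70 proteins receive substrates from J proteins, which stimulate their ATPase, and HSP110 proteins exchange their nucleotide. HSP90 proteins act later, on near-native clients such as kinases and steroid receptors, and small heat shock proteins hold unfolding proteins without ATP. HSF1 is the transcription factor that activates many of these genes after heat or other proteotoxic stress by binding heat shock elements, which are repeats of the unit NGAAN in alternating orientation. In the mouse, HSF1 is a maternal factor of the oocyte, and transcription of HSP70 genes is one of the early signs that the embryonic genome has become active.

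Promoter sequence was on hand for 6 of the 10 genes, as RefSeq start sites on GRCm38.p6 with 250 bases before and 50 bases after the start. The letters TTCNNGAA or GAANNTTC, a heat shock element core of 2 units whose forms each read the same on both strands, were found in 5 of the 6 (Dnaja1, Hspa1a, Hspa1b, Hspb8 and Hsph1, but not Dnajb1), and in 17.0% of 27025 genes with windows of the same length. In the 250 bases before the start alone, 4 of 6 genes (all of these but Hspb8) held it, against 14.5% of all genes. A gene counted if any of its windows held the core, and Dnaja1, Dnajb1 and Hsph1 had more than 1 window. Over 32851 single windows, the shares were 15.1% and 12.8%. The near-identical Hspa1a and Hspa1b were counted separately. The 3-unit form, which is the core extended by a further unit in alternating orientation, was found in Hsph1 only, after its start, against 0.659% of all genes. The core before the start was TTCTCGAA in Hsph1, with its first base 33 bases before one of its starts. Dnaja1 had a core 124 bases before one of its starts and none in the windows of its other starts. The Hspa1a and Hspa1b pair had a core 104 bases before the start. The 250 bases before the start are given for Hspa1a, Hspa1b and the Dnaja1 start with a core, but not for Hsph1. They run 5′ to 3′ on the gene's strand with the core in capitals. They show how nearly identical that pair is.
Hspa1a (chr17:34972157-34972406, minus strand): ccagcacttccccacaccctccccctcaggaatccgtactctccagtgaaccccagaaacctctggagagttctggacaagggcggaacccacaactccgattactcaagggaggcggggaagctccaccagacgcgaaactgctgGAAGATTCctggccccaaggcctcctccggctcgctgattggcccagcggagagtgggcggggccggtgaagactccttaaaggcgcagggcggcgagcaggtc
Hspa1b (chr17:34959239-34959488, minus strand): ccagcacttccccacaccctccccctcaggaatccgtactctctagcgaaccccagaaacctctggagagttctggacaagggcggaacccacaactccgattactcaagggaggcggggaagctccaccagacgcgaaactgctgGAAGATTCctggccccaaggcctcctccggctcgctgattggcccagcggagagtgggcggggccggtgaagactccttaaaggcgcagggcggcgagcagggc
Dnaja1 (chr4:40722218-40722467, plus strand): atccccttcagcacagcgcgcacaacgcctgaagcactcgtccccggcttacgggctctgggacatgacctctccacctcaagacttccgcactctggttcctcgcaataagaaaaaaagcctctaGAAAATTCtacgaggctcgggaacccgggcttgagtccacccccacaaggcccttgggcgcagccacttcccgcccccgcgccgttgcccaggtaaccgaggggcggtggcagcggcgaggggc
From Hspa1a to Hspa1b, 3 of these 250 bases differed (C44T, T47C and T249G, counted from 1 at the 5′ end), so that 98.8% were identical. A match of letters is a description of the sequence and not evidence of a bound site.

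Total counts ran from 7395193 to 13301570 per library over MII and the windows and from 14080264 to 23018252 in the genotype set. Oocyte markers (Zp3, Gdf9, Bmp15, Nlrp5 and Mos) summed to 7853 to 8267 CPM (read counts relative to the TMM-scaled library size) in MII and to 1.22 to 47.6 CPM at 90-96hpi. Markers of the 2-cell embryo (Zscan4d, Zfp352, Tdpoz1 and Usp17lc) were highest at 18-24hpi, at 1291 to 1577 CPM, and those of morula and blastocyst (Cdx2, Gata3, Krt8, Krt18 and Nanog) at 90-96hpi, at 5420.3 to 8827 CPM. Summed markers of cumulus and granulosa cells, which surround the egg at insemination, were at 136 to 153 CPM in MII and 88.2 to 107 CPM at 0-6hpi. Of these 8 markers, 3 to 5 were at 0 in MII libraries and 2 to 3 at 0-6hpi, so the sums came from part of the list. The sums were still 91.5 to 115 CPM at 12-18hpi and 45.1 to 57.6 CPM at 18-24hpi. Their part in the chaperone levels was not tested. In such bulk libraries, fewer embryos or cells with a transcript and less of it per cell cannot be told apart.

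Together the 10 genes made up 4571 ± 337 CPM in MII (mean ± SD, n = 3 here and in each window), 2107 ± 190.4 at 12-18hpi and 1513 ± 6.23 at 18-24hpi, the lowest point. They reached 4227 ± 374 CPM at 30-36hpi, 21226 ± 1189 at 48-54hpi, 20939 ± 1575 at 70-76hpi and 14554 ± 2712 at 90-96hpi. Which gene led changed with age. Per kilobase of the gene length in the deposited table, MII held Hsp90aa1 at 812 CPM, Hsp90ab1 at 328, Hspa8 at 113 and Dnaja1 at 88.2 CPM per kb, with no overlap between neighbours in this order. Hsf1 followed at 34.8, then Dnajb1 at 23.0 and Hsph1 at 18.8 CPM per kb, whose libraries overlapped, while Hspb8, Hspa1b and Hspa1a were at or below 0.0794. This order depends on the lengths used. In CPM without division by length, Dnaja1 (438 to 542 over MII libraries) lay above Hspa8 (342 to 373). Hsph1, with a mean of 89.8 CPM, lay above Hsf1 at 70.1 and Dnajb1 at 68.9. At 48-54hpi Hspa8 led with 3607 CPM per kb, above Hsp90ab1 at 2038, Hsp90aa1 at 592 and Dnaja1 at 442. Hspa8 thus held 7.12% of the summed CPM of the 10 genes at 12-18hpi and 53.6% at 48-54hpi. In CPM without division by length, Dnaja1 at 2486 lay above Hsp90aa1 at 1943 at 48-54hpi.

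**Figure D1:**
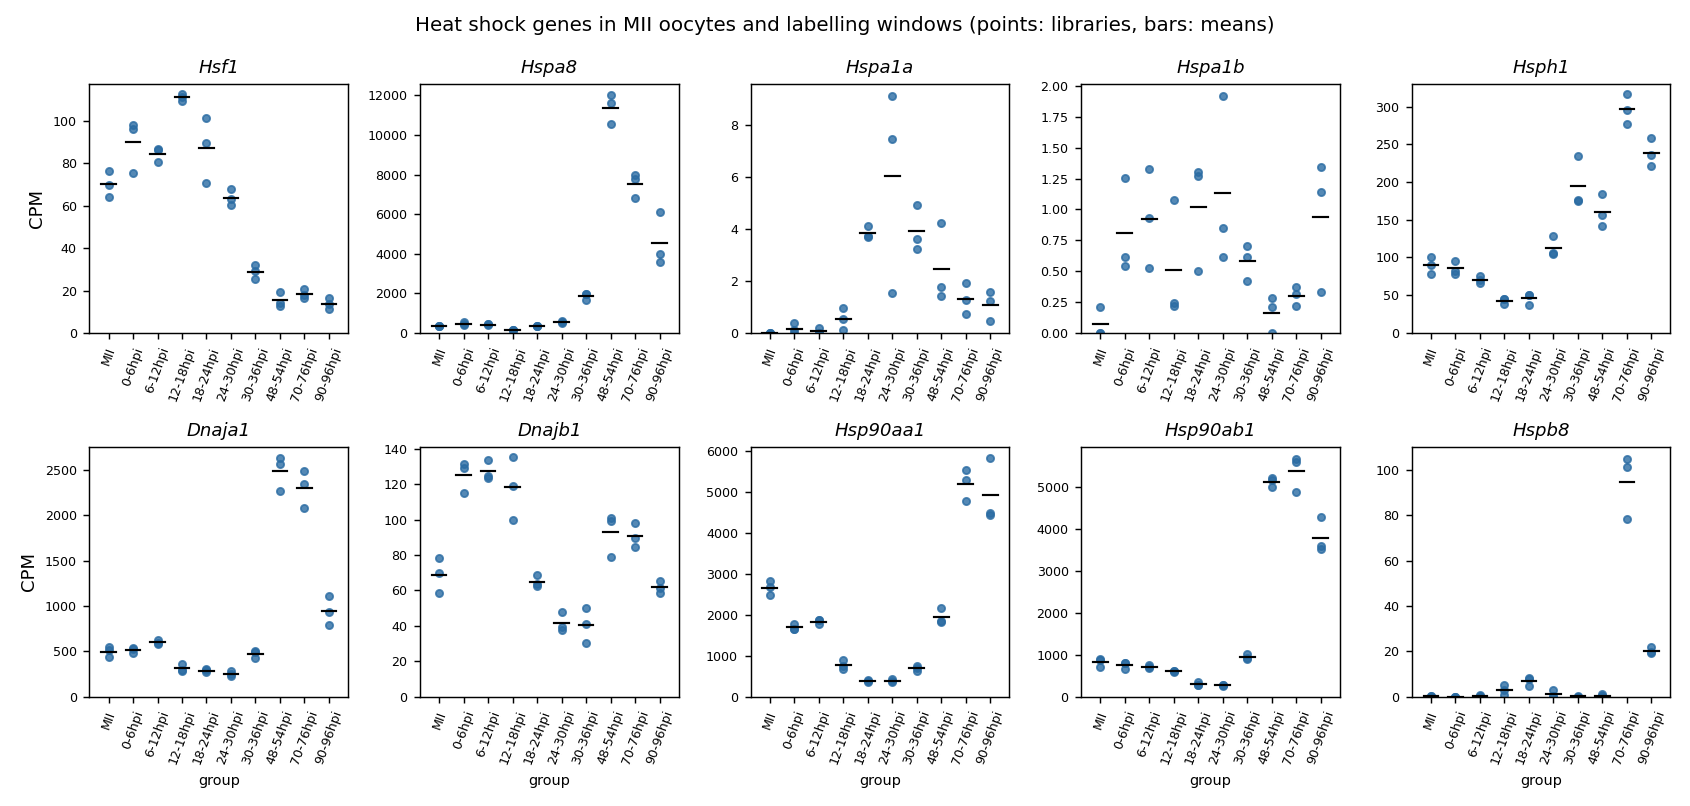
Each panel plots 1 gene, with MII and the 9 labelling windows on the x axis and CPM on a linear y axis that starts at 0 and differs between panels; points are libraries and bars are group means. Hspa8 is lowest at 12-18hpi, Hsp90aa1, Hsp90ab1 and Dnaja1 are lowest at 18-24hpi or 24-30hpi, Hspa8, Hsp90ab1 and Dnaja1 are high from 48-54hpi and Hsp90aa1 from 70-76hpi, Hsf1 is high in the first windows and low from 30-36hpi, and Hspb8 is high at 70-76hpi.

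Hsf1 (chromosome 15, 76477362 to 76501155 on GRCm38.p6, as are all positions here) had its highest mean at 12-18hpi and was low from 30-36hpi onward. Its 3 libraries held 76.5, 64.2 and 69.7 CPM in MII, 75.5, 96.4 and 98.0 at 0-6hpi, 86.6, 86.2 and 80.9 at 6-12hpi and 113, 109.5 and 112 at 12-18hpi. All 12-18hpi libraries stood above all MII libraries, and this difference over several steps was called (log2 change 0.67 with SE 0.17, adjusted p = 0.00132; edgeR quasi-likelihood test with Benjamini-Hochberg adjustment over all tested genes, as for every adjusted p that follows). No single step up to 18-24hpi was called for Hsf1 (adjusted p from 0.106 to 0.874). The libraries then held 89.6, 70.8 and 102 CPM at 18-24hpi, 67.7, 60.2 and 63.2 at 24-30hpi, 25.3, 32.1 and 29.4 at 30-36hpi and 14.2, 12.9 and 19.1 at 48-54hpi. Each of these groups lay below the one before it without overlap. The step to 24-30hpi (log2 change -0.45 with SE 0.17, adjusted p = 0.0251) lost its call under 9 of 12 alternatives, all but DESeq2 size factors, DESeq2's own test and the replicate block, with adjusted p up to 0.881 under total count scaling. Hsf1 fell 2.20-fold at 30-36hpi (log2 change -1.14 with SE 0.17, adjusted p = 9.94e-07) and 1.88-fold at 48-54hpi (log2 change -0.91 with SE 0.18, adjusted p = 3.61e-05), and these 2 steps kept their calls under every alternative run. The last windows held 16.5, 17.8 and 20.8 and 11.2, 16.2 and 13.4 CPM, so that Hsf1 at 90-96hpi was 5.15-fold below MII (log2 change -2.36 with SE 0.18, adjusted p = 3.05e-14).

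Hspa8 (chromosome 9, 40801276 to 40805202) encodes HSC70, the constitutive HSP70 of the cytosol, and had the widest range of the 7 members with reads in every library: its mean was 76.2-fold higher at 48-54hpi than at 12-18hpi. The libraries held 342, 373 and 353 CPM in MII, 527, 455 and 415 at 0-6hpi, 388, 437 and 439.9 at 6-12hpi and 138, 153 and 157 at 12-18hpi. The 12-18hpi libraries lay far below the rest, with no overlap, and Hspa8 fell 2.82-fold at this step (log2 change -1.50 with SE 0.13, adjusted p = 2.38e-10). The smaller rise at 0-6hpi (log2 change 0.39 with SE 0.13, adjusted p = 0.0292) was lost with DESeq2 size factors (adjusted p = 0.119), with DESeq2 (adjusted p = 0.128) and when any MII library or 0-6hpi replicate 1 was left out (adjusted p at most 0.214). From 18-24hpi on, values climbed to 339, 352 and 338 CPM, 481, 562 and 589 at 24-30hpi, 1638, 1959.7 and 1950.5 at 30-36hpi and 10566, 12006 and 11598 at 48-54hpi. Every library of these 4 groups exceeded every library of the group before. The successive rises were 2.30-fold (log2 change 1.199, adjusted p = 4.47e-09), 1.59-fold (log2 change 0.66, adjusted p = 7.87e-05), 3.40-fold (log2 change 1.77, adjusted p = 7.6e-13) and 6.16-fold (log2 change 2.62 with SE 0.14, adjusted p = 7.95e-18). Hspa8 then fell to 7791, 7983 and 6833 CPM at 70-76hpi (log2 change -0.60, adjusted p = 0.000294) and to 6092, 3587 and 3989.6 at 90-96hpi (log2 change -0.73, adjusted p = 2.54e-05), where replicate 1 was the highest.

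Hspa1a (chromosome 17, 34969359 to 34972156) and Hspa1b (chromosome 17, 34956429 to 34959238) are the stress-inducible HSP70 genes and lie side by side on chromosome 17. Their coding sequences are near-identical and how reads that match both were counted is not given in the sources used here, so the split of reads between them is uncertain. Hspa8 and the HSP90 genes have processed pseudogenes with similar sequence, and their counts carry the same doubt. Hspa1a had 0 reads in the 3 MII libraries, which allows up to 0.109 CPM (3 reads over the group). It stayed at or below 0.954 CPM in every library up to 12-18hpi. The 18-24hpi libraries held 4.14, 3.69 and 3.75 CPM, close together and above all earlier ones, a 6.996-fold rise on 12-18hpi (log2 change 2.81 with SE 0.77, adjusted p = 0.00468) and at least 35.5-fold above the MII limit. At 24-30hpi they held 9.15, 1.54 and 7.46 CPM, where replicate 2 lay below every 18-24hpi library, and at 30-36hpi 4.93, 3.63 and 3.24. No step after 18-24hpi was called for Hspa1a, and over several steps it fell from 30-36hpi to 90-96hpi (0.443, 1.23 and 1.59 CPM; log2 change -1.84 with SE 0.71, adjusted p = 0.0218), which was not called when leaving out 30-36hpi replicate 1 (adjusted p = 0.0584) or 90-96hpi replicate 1 (adjusted p = 0.0585). The highest level of Hspa1a, 2.04 CPM per kb, compares with 172 for Hspa8 in the same window.

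Hspa1b never passed 1.92 CPM in the windows. It had 2 reads over the MII libraries and 27 over the 0-6hpi libraries, a ratio of 11.4 per read sequenced with a 95% counting interval from 2.86 to 98.7, which covers counting error only. That step was called for Hspa1b (adjusted p = 0.0254), but not without the low-count filter (adjusted p = 0.0599) or without MII replicate 2, MII replicate 3 or 0-6hpi replicate 3 (adjusted p up to 0.114). In contrast to Hspa1a, no step of Hspa1b around 18-24hpi was called (log2 change 0.996, adjusted p = 0.414); whether the pair differed there was not tested.

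Hsph1 (chromosome 5, 149616843 to 149636498) encodes HSP105, an HSP110 protein that exchanges nucleotide on HSP70. It fell 1.67-fold at 12-18hpi, from 70.1, 75.5 and 66.8 to 38.1, 44.7 and 44.3 CPM (log2 change -0.74 with SE 0.15, adjusted p = 0.000508), held 49.9, 50.8 and 36.9 CPM at 18-24hpi and rose 2.46-fold to 104.6, 106 and 128 CPM at 24-30hpi (log2 change 1.30 with SE 0.15, adjusted p = 5.65e-09). A further rise brought it to 175, 176 and 235 CPM at 30-36hpi (log2 change 0.79, adjusted p = 2.2e-05). No 24-30hpi library reached the lowest of these. Unlike the 4 most abundant members, Hsph1 was not called higher at 48-54hpi, where it held 156, 184 and 142 CPM (log2 change -0.28, adjusted p = 0.0825); 7 of 12 alternatives called it lower there, with log2 fold changes down to -0.76. It rose again at 70-76hpi, to 277, 296 and 317 CPM (log2 change 0.89, adjusted p = 3.68e-06), and held 258, 221 and 236 CPM at 90-96hpi.

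The J proteins of the list followed different courses. Dnaja1 (chromosome 4, 40722468 to 40734965), a class A J protein that delivers substrates to HSP70, held 623, 575 and 590.3 CPM at 6-12hpi and 288, 283 and 363 at 12-18hpi, a fall of 1.91-fold without overlap (log2 change -0.94 with SE 0.12, adjusted p = 1.03e-06). Its lowest mean was at 24-30hpi, with 223, 284 and 248 CPM. It rose to 419, 489.9 and 497 CPM at 30-36hpi (log2 change 0.90, adjusted p = 2.03e-07) and 5.30-fold further to 2267, 2629 and 2563 CPM at 48-54hpi (log2 change 2.41 with SE 0.13, adjusted p = 1.18e-17). Libraries of 70-76hpi overlapped with these, at 2342, 2482 and 2083 CPM, and those of 90-96hpi were well below, at 1112, 789 and 928 CPM (log2 change -1.29, adjusted p = 2.05e-10). Dnajb1 (chromosome 8, 83608175 to 83612653), the class B J protein HSP40 that is strongly heat-inducible in somatic cells, had its highest means early. It rose from 58.7, 69.9 and 78.1 CPM in MII to 129, 131 and 115 at 0-6hpi (log2 change 0.86 with SE 0.16, adjusted p = 8.25e-05), had no called step up to 12-18hpi (136, 100.0 and 119 CPM) and fell to 62.2, 63.4 and 68.8 at 18-24hpi (log2 change -0.87, adjusted p = 3.73e-05). All libraries of the first 3 windows exceeded all MII and all 18-24hpi libraries. A further fall to 47.6, 37.5 and 39.6 CPM (log2 change -0.64, adjusted p = 0.00126) lost its call when scaled by total counts (adjusted p = 0.255) and on leaving out 18-24hpi replicate 2 or 3 (adjusted p = 0.0507 and 0.0656). At 48-54hpi Dnajb1 rose 2.29-fold (log2 change 1.19, adjusted p = 5.68e-08), against 5.30-fold for Dnaja1, and its range over all groups was 3.13-fold, against 9.89-fold for Dnaja1.

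Hsp90aa1 (chromosome 12, 110691036 to 110696395), the inducible HSP90 of the cytosol, had the highest level of the members in MII and fell at 3 steps up to 18-24hpi. Its libraries held 2685, 2829 and 2480.3 CPM in MII, 1769, 1645 and 1656 at 0-6hpi, 1869, 1859 and 1763 at 6-12hpi, 749.7, 663 and 904 at 12-18hpi and 392, 376 and 354 at 18-24hpi. All MII libraries exceeded all later ones up to this age, and the 0-6hpi and 6-12hpi groups overlapped. The falls were 1.58-fold at 0-6hpi (log2 change -0.66 with SE 0.11, adjusted p = 4.38e-05), 2.37-fold at 12-18hpi (log2 change -1.24, adjusted p = 5.93e-10) and 2.06-fold at 18-24hpi (log2 change -1.05, adjusted p = 4.06e-09). The transcript then rose at 30-36hpi to 632, 702 and 752 CPM (log2 change 0.84, adjusted p = 1.87e-07), at 48-54hpi to 1840.4, 2159 and 1829 (log2 change 1.48, adjusted p = 2.64e-13) and at 70-76hpi to 5529.9, 5302 and 4785 (log2 change 1.42, adjusted p = 2.47e-12). It did not differ detectably at 90-96hpi, with 5822, 4497 and 4443 CPM (log2 change -0.08, adjusted p = 0.617).

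Hsp90ab1 (chromosome 17, 45567778 to 45573261), the constitutive cytosolic HSP90, began lower. It held 876, 900.3 and 702 CPM in MII and 601, 580.3 and 612 at 12-18hpi, without overlap, and this fall over several steps was called (log2 change -0.47 with SE 0.11, adjusted p = 0.000754), although none of the 3 single steps between was (adjusted p from 0.147 to 0.833). The first called single step was at 18-24hpi, a 1.99-fold fall to 277, 286 and 336 CPM (log2 change -0.996 with SE 0.11, adjusted p = 5.7e-09), and 24-30hpi held 273, 243 and 287 CPM. It rose 3.53-fold to 890.3, 914 and 1028 CPM at 30-36hpi (log2 change 1.82 with SE 0.11, adjusted p = 9.33e-15) and 5.44-fold to 5007, 5218 and 5181 CPM at 48-54hpi (log2 change 2.44 with SE 0.12, adjusted p = 6.29e-19). The groups did not overlap at either step. Values were 5684, 5599.6 and 4894 CPM at 70-76hpi and fell to 4292, 3588 and 3514 at 90-96hpi (log2 change -0.51, adjusted p = 0.000334).

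The balance between the HSP90 genes changed sides with age. The ratio of Hsp90aa1 to Hsp90ab1 CPM per kb had a mean of 2.49 in MII (2.36 to 2.71 over libraries), 1.75 at 0-6hpi and 1.98 at 6-12hpi. The ratio was near parity from 12-18hpi to 24-30hpi, with means of 0.990, 0.969 and 1.13. It was 0.566 at 30-36hpi and lowest at 48-54hpi, 0.290 (0.271 to 0.318), then 0.742 at 70-76hpi and 0.992 at 90-96hpi. All MII libraries lay above 1 and all 30-36hpi to 70-76hpi libraries below it. Parity depends on the lengths used. In CPM without division by length, mean Hsp90aa1 lay above mean Hsp90ab1 at 12-18hpi (772 against 598) and 18-24hpi (374 against 300). The same held at 24-30hpi (388 against 267) and 90-96hpi (4921 against 3798). The ratio is given as a description of the levels above, without a test of its own.

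**Figure D2:**
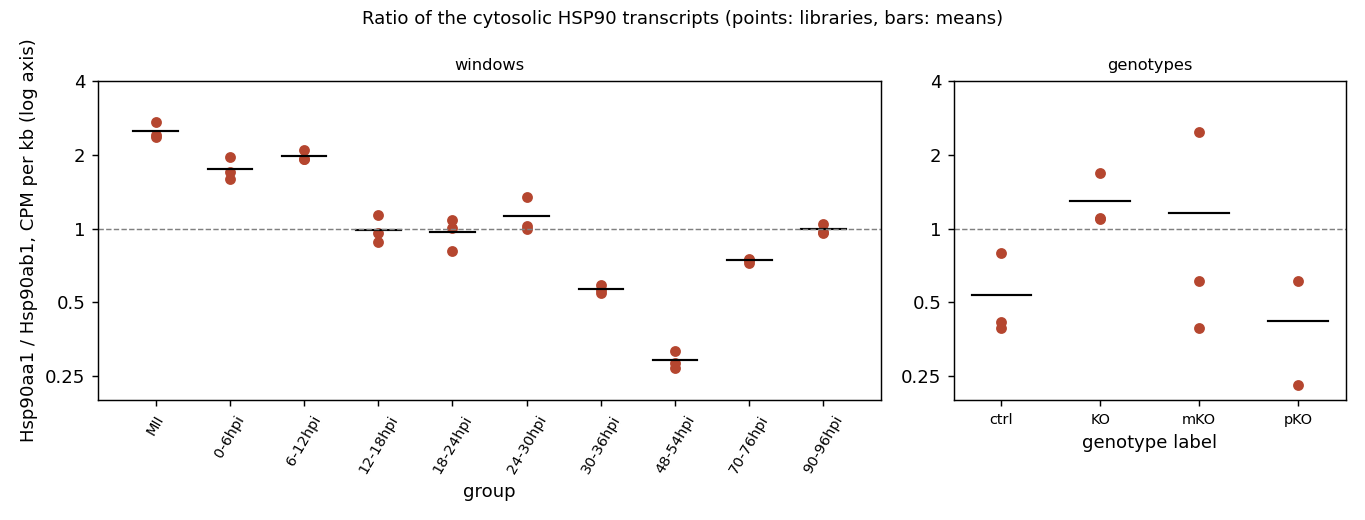
In panels for windows and genotypes, the y axis, on a log scale, gives the ratio of Hsp90aa1 to Hsp90ab1 CPM per kb in each library, and the x axis gives MII, the 9 windows and the 4 genotype labels; points are libraries and bars are group means. The ratio falls from a mean of 2.49 in MII to 0.290 at 48-54hpi and returns to 0.992 at 90-96hpi, and KO libraries lie above ctrl libraries, at 1.09 to 1.69 against 0.394 to 0.795.

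Hspb8 (chromosome 5, 116408491 to 116422864) encodes a small heat shock protein that works with the co-chaperone BAG3 in the removal of misfolded proteins. It was almost without reads except in a few windows: 0 reads at 0-6hpi, which allows up to 0.0917 CPM (3 reads over the group), and at most 0.893 CPM in any 48-54hpi library. At 70-76hpi the libraries held 78.4, 104.9 and 102 CPM, all far above every other window (log2 change 8.05 with SE 0.94, adjusted p = 2.36e-07), and at 90-96hpi 21.9, 19.0 and 19.5 CPM. This last fall (log2 change -2.24, adjusted p = 0.00709) was not called by DESeq2 (adjusted p = 0.118). A small earlier peak reached 4.61, 7.84 and 8.38 CPM at 18-24hpi, after 0.722, 5.13 and 3.05 at 12-18hpi, and ended with 0, 0.206 and 3.05 CPM at 24-30hpi. Libraries of 18-24hpi and 24-30hpi did not overlap (log2 change -2.60, adjusted p = 0.00876), but DESeq2 (adjusted p = 0.0632) and the fit without 24-30hpi replicate 1 (adjusted p = 0.0509) did not call this step. The calls for Hspb8 at 12-18hpi (log2 change 3.26, adjusted p = 0.0368) and 30-36hpi (log2 change -3.43, adjusted p = 0.0418) rested on overlapping groups of few reads. The latter compared 3 reads at 30-36hpi with 38 at 24-30hpi, a ratio of 0.0789 with a 95% counting interval from 0.0156 to 0.249. The 12-18hpi call ended on leaving out replicate 1 or 3 of 6-12hpi, or replicate 2 or 3 of 12-18hpi (adjusted p at most 0.219) and the 30-36hpi call on leaving out replicate 3 of 24-30hpi, or replicate 1 or 2 of 30-36hpi (adjusted p at most 0.998).

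Counted over the 9 steps, 41 of 90 member tests were called, 21 of them rises and 20 falls. These counts include Hspa1a, Hspa1b and Hspb8, which passed the low-count filter through the groups in which they were highest. Calls of these genes that involve those groups are not separate support. At 0-6hpi 3 members rose and 1 fell, where 12.9% of all genes rose and 8.28% fell. At 6-12hpi no member was called (0 by DESeq2 too, and 0 of the 10 at an unadjusted p below 0.05), where 4.73% of all genes rose and 2.93% fell. Other alternatives did call members at this step. Dnaja1 was called higher (adjusted p = 0.0272) and Hsph1 lower (adjusted p = 0.033) under 1 of 12 each. Hspb8, with few reads, was called higher under 1 of 11 (adjusted p = 0.021). At 12-18hpi 1 rose and 4 fell (all genes 7.11% and 6.09%), at 18-24hpi 2 rose and 3 fell (all genes 18.1% and 14.9%) and at 24-30hpi 2 rose and 3 fell (all genes 21% and 24.4%). The step to 30-36hpi had 5 rises and 2 falls (all genes 21% and 29%) and the step to 48-54hpi 5 rises and 1 fall (all genes 28.7% and 33.3%). At 70-76hpi 3 rose and 1 fell (all genes 21.6% and 21.8%), and at 90-96hpi none rose and 5 fell (all genes 20.1% and 19.5%). The share of members that fell was well above that of all genes at 12-18hpi, where Hspa8, Hsp90aa1, Dnaja1 and Hsph1 fell, and at 90-96hpi, where Hspa8, Hsp90ab1, Dnaja1, Dnajb1 and Hspb8 fell. The last fall of Hspb8 started from 70-76hpi, the group in which it was highest. The share that rose was well above that of all genes at 30-36hpi and 48-54hpi, where Hspa8, Hsp90aa1, Hsp90ab1 and Dnaja1 rose at both steps. The members and the lists below were chosen with earlier results of these data known. The shares over all genes also cover genes at every level, while these 4 members are the most abundant of the list. These differences in share are therefore a description and not a test. The median log2 fold change of the 10 genes was -0.49 at 12-18hpi, 0.38 at 30-36hpi and 1.34 at 48-54hpi, beside 0.12, -0.22 and -0.19 over all genes. Over longer spans, 4 members rose and 5 fell from MII to 12-18hpi (all genes 27.9% and 15.9%), 5 rose and 3 fell from 12-18hpi to 30-36hpi (all genes 33.3% and 41%), and 6 rose and 2 fell from 30-36hpi to 90-96hpi (all genes 33.3% and 37.8%). From MII to 90-96hpi 8 members rose and 1, Hsf1, fell (all genes 42.6% and 38.4%), and Dnajb1 was not called (log2 change -0.16, adjusted p = 0.359).

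**Figure D3:**
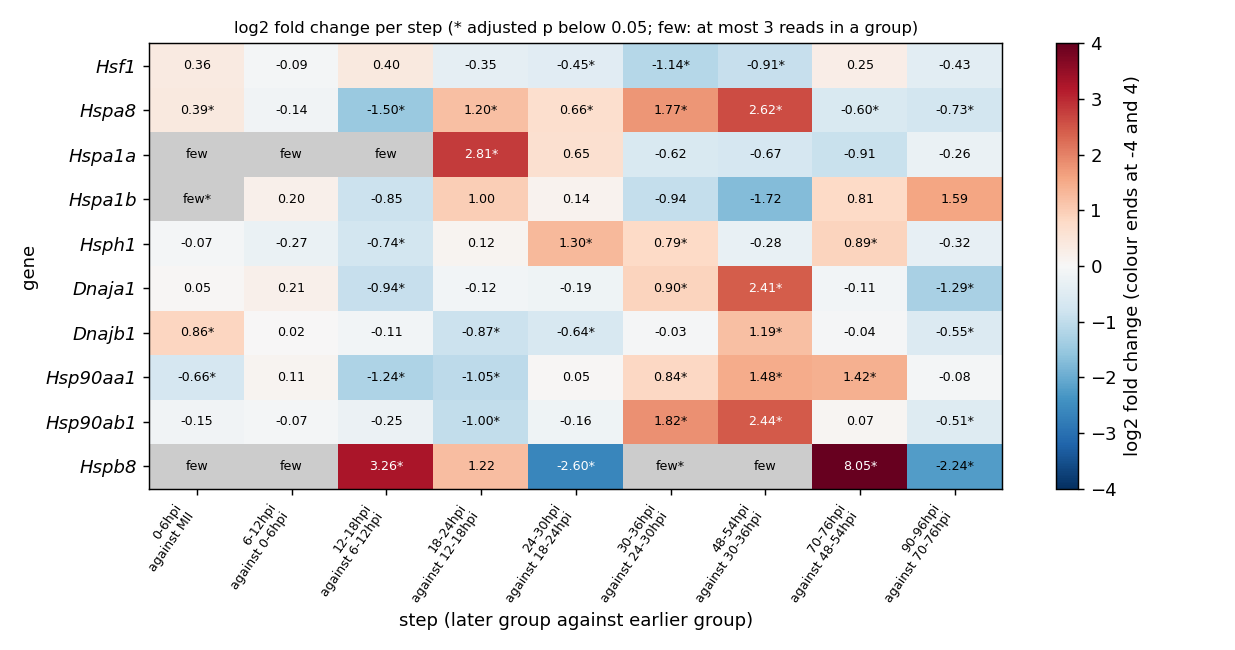
Colour and printed values give the log2 fold change of each gene (rows) at each step from one group to the next (columns), with colour ending at -4 and 4; stars mark adjusted p below 0.05, and grey cells marked few have 3 reads or fewer in a group. Hspa8 rises at 4 steps in a row from 18-24hpi, while Hsf1 falls at 3 steps from 24-30hpi.

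Among 17 HSP90 co-chaperones, 3 rose and 8 fell at 18-24hpi (all genes 18.1% and 14.9%), 10 rose and 2 fell at 30-36hpi (all genes 21% and 29%), and 12 rose and 3 fell at 48-54hpi (all genes 28.7% and 33.3%). These shares of all genes that rose and fell apply to each list below at the same step. Stip1, which links HSP70 to HSP90, rose at 48-54hpi from 443 ± 11.8 to 1708 ± 33.0 CPM (log2 change 1.95, adjusted p = 2.41e-16), and Fkbp5, an immunophilin of steroid receptor complexes, fell from 38.5 ± 5.72 to 3.91 ± 1.117 CPM (log2 change -3.30, adjusted p = 1.09e-14). At 90-96hpi 1 co-chaperone rose and 9 fell (all genes 20.1% and 19.5%), Stip1 to 268 ± 49.3 CPM (log2 change -2.11, adjusted p = 4.16e-16). Of 27 HSP70 co-chaperones and J proteins outside the members, 14 rose and 8 fell at 30-36hpi, a share of falls close to that of all genes, and 13 rose and 4 fell at 48-54hpi; under total count scaling the last split was 10 and 8 and the sign of the list's median log2 fold change turned, from 0.38 to -0.10. At 12-18hpi 1 of the 27 rose and 8 fell (all genes 7.11% and 6.09%), among them Hspa4, an HSP110 gene like Hsph1, from 83.9 ± 2.20 to 23.5 ± 4.08 CPM (log2 change -1.83, adjusted p = 2.9e-12). At 18-24hpi Dnajb14, a J protein of the endoplasmic reticulum membrane, rose from 4.41 ± 1.63 to 74.9 ± 18.2 CPM (log2 change 4.09, adjusted p = 1.25e-15).

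All 14 tested subunits of the chaperonin TRiC and of prefoldin, which fold actin and tubulin, rose at 48-54hpi (10 under total count scaling). Cct7 rose from 158 ± 8.85 to 1260.5 ± 88.6 CPM (log2 change 3.00, adjusted p = 1.69e-17) and Cct2 from 209 ± 12.5 to 746 ± 63.7 CPM (log2 change 1.84, adjusted p = 1.14e-14). At the same step, 5 of 9 organelle HSP70, HSP90 and HSP60 genes rose and 2 fell. Mitochondrial Hspd1 rose from 124 ± 22.5 to 546 ± 96.3 CPM (log2 change 2.14, adjusted p = 1.15e-14), while the endoplasmic reticulum HSP90 gene Hsp90b1 fell from 202 ± 13.02 to 74.8 ± 10.97 CPM (log2 change -1.44, adjusted p = 1.37e-13) and rose to 488 ± 5.57 CPM at 90-96hpi (log2 change 2.07, adjusted p = 1.64e-16). Of 5 tested small heat shock protein genes outside the members, 4 rose and none fell at 70-76hpi (all genes 21.6% and 21.8%), the step at which Hspb8 rose. Cryab, the lens crystallin that is also a stress chaperone, rose at 70-76hpi from 13.8 ± 1.43 to 167 ± 17.8 CPM (log2 change 3.59, adjusted p = 1.88e-13) and at 90-96hpi to 341 ± 48.6 CPM (log2 change 1.03, adjusted p = 0.00051). Among 4 other cytosolic HSP70 genes, Hspa2, best known from male germ cells, rose at 18-24hpi from 14.3 ± 7.50 to 109.7 ± 23.9 CPM (log2 change 2.94, adjusted p = 1.92e-10). Of 5 tested HSF and HSF-binding genes, none rose and 4 fell at 30-36hpi with Hsf1, among them Hsbp1, whose product binds HSF1, from 234 ± 36.0 to 69.5 ± 7.10 CPM (log2 change -1.75, adjusted p = 1.1e-12). Hsf2 rose at 48-54hpi, the step at which Hsf1 fell, from 4.21 ± 1.002 to 14.1 ± 2.50 CPM (log2 change 1.75, adjusted p = 0.000177).

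**Figure D4:**
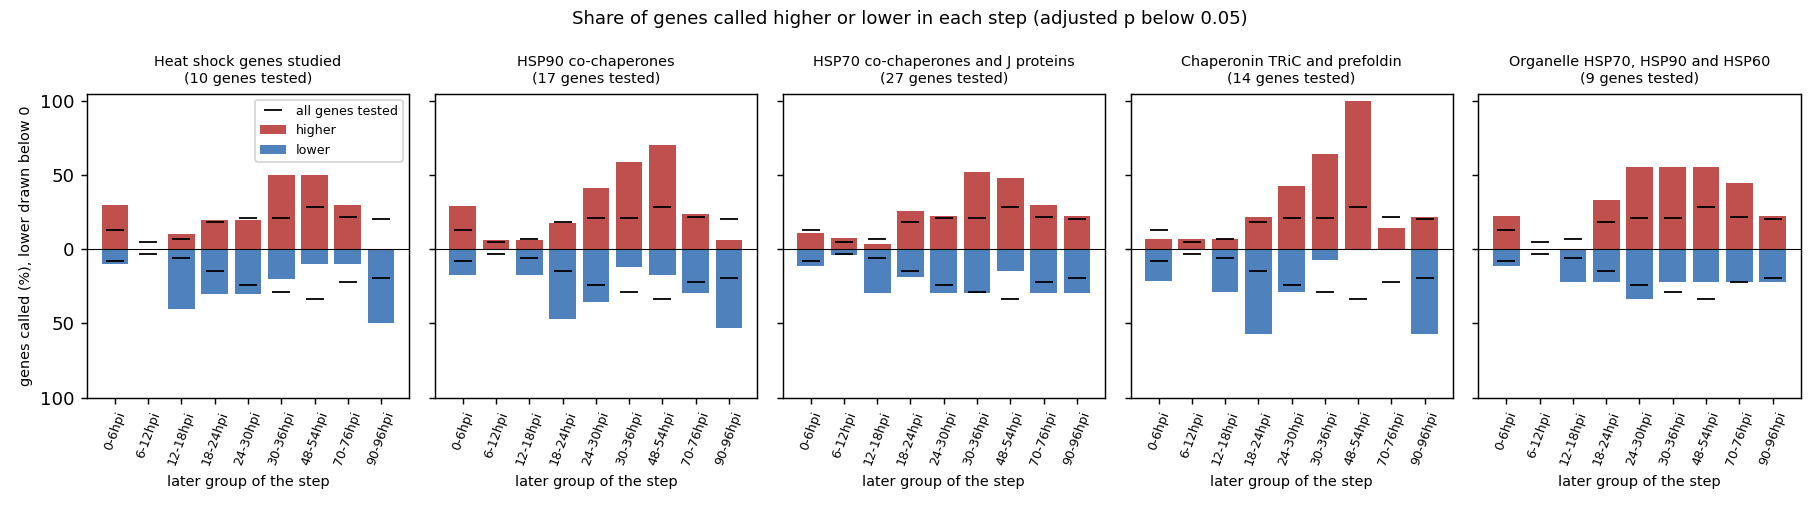
The 5 panels are lists of chaperone genes, with the step's later group on the x axis and the percentage of tested genes called on the y axis; bars above 0 are genes called higher, bars below 0 genes called lower, and black dashes the same for all genes tested. At 48-54hpi the bar for TRiC and prefoldin covers 14 of 14 genes called higher.

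As a description, patterns over the 10 group means of log2(CPM + 1) were compared between genes; these points share libraries and scaling, and no p is given. Within the list, Hsp90ab1 and Dnaja1 were the most alike (r = 0.95) and Hspa8 ran opposite to Hsf1 (r = -0.97), while Hspa1a and Hspa1b were little alike (r = 0.30). Among 9622 genes whose mean reached 20 CPM in any group, Hsp90ab1 was most like Rnaseh2b (r = 0.996) and Rack1 (r = 0.987), and Dnaja1 most like the TRiC gene Cct2 (r = 0.980) and the HSP90 co-chaperone Ppp5c (r = 0.978). Hspa8 was most like Gm26825 (r = 0.988) and Rbfa (r = 0.986), Hsf1 like Dgkk and Stk32b (both r = 0.994), and Hsph1 like Rrp36 (r = 0.979) and Cd3eap (r = 0.969). For Hsp90aa1 the nearest were Mrpl47 (r = 0.976) and Prep (r = 0.973), for Dnajb1 H13 (r = 0.960) and Chchd6 (r = 0.942), and for Hspb8 Hal (r = 0.959) and Abhd5 (r = 0.949). The scarce Hspa1a was most like Lrrc2 (r = 0.989) and Gm36445 (r = 0.985), and Hspa1b, whose highest r was 0.848 with Cdc42se1 and 0.834 with Trim41, was like none as closely.

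The genotype set asks how loss of Klf17, which encodes a zinc finger transcription factor, changed embryos at the M2C stage. Klf17 itself held 596, 805 and 746 CPM in the ctrl libraries, 673, 603 and 728 in those labelled KO, 359, 845 and 794 in those labelled mKO and 812 and 1015 in those labelled pKO. The ctrl, KO and mKO libraries overlapped, both pKO libraries lay above all ctrl libraries, and KO was not called against ctrl (log2 change -0.10 with SE 0.30, adjusted p = 0.869). The deleted part of the gene is not given in the sources used here, so these counts do not check the labels, and the groups are called by their labels. All comparisons with ctrl share the same 3 ctrl libraries.

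In the libraries labelled KO, 2 of the 10 members were lower than in ctrl and none was higher, where 1.82% of all genes rose and 6.31% fell. Hspa8 held 1618, 1579.8 and 1606 CPM in ctrl and 528, 577 and 574 CPM in KO, tight groups that lay 2.86-fold apart (log2 change -1.52 with SE 0.30, adjusted p = 0.0113). Hsp90ab1 held 528, 1167 and 1094 CPM in ctrl and 205, 285 and 193 CPM in KO, 4.08-fold lower (log2 change -2.03 with SE 0.48, adjusted p = 0.0194). No KO library reached the lowest ctrl library for either gene, although ctrl replicate 1 stood far below the other ctrl libraries for Hsp90ab1. Neither call held in every fit that left out 1 library. Without KO replicate 1 or 2 Hspa8 was no longer called (adjusted p = 0.0523 and 0.0666), and without ctrl replicate 2 or 3 or any one KO replicate neither was Hsp90ab1 (adjusted p from 0.0738 to 0.0826), with log2 fold changes of Hsp90ab1 from -2.19 to -1.83. Over all genes, 1358 were called with all libraries and 0 without KO replicate 2 (3235 at an unadjusted p below 0.05; DESeq2 was not run there).

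KO libraries also differed from ctrl in other measures. Mitochondrially encoded genes held 5.92% to 11.4% of their counts, against 3.23% to 4.18% in ctrl, and their total counts were 14080264 to 15631152, against 17858094 to 19876670. Summed oocyte markers were at 2612 to 3078 CPM in KO and 1462 to 2062 in ctrl, and summed 2-cell markers at 992 to 1104 and 709 to 976 CPM, with none of these genes at 0 in any library. Summed morula and blastocyst markers were at 40.4 to 96.2 CPM in KO and 24.9 to 38.7 in ctrl, without overlap, with 1 of the 5 genes at 0 in every ctrl library. Markers of cumulus and granulosa cells, of which 7 of 8 were in the table, summed to 8.67 to 14.2 CPM in KO and 13.3 to 23.6 in ctrl. Of these, 1 to 2 were at 0 in KO libraries and 0 to 3 in ctrl. The part of the markers and of depth in the result was not tested. With mitochondrial genes left out, Hspa8 and Hsp90ab1 were still called lower. With the mitochondrial share as a covariate no gene was called (1424 of 16694 at an unadjusted p below 0.05), and the log2 fold changes were -1.04 for Hspa8 (adjusted p = 0.604) and -0.96 for Hsp90ab1 (adjusted p = 0.845). Every KO library had a higher mitochondrial share than every library of the other labels.

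**Figure D5:**
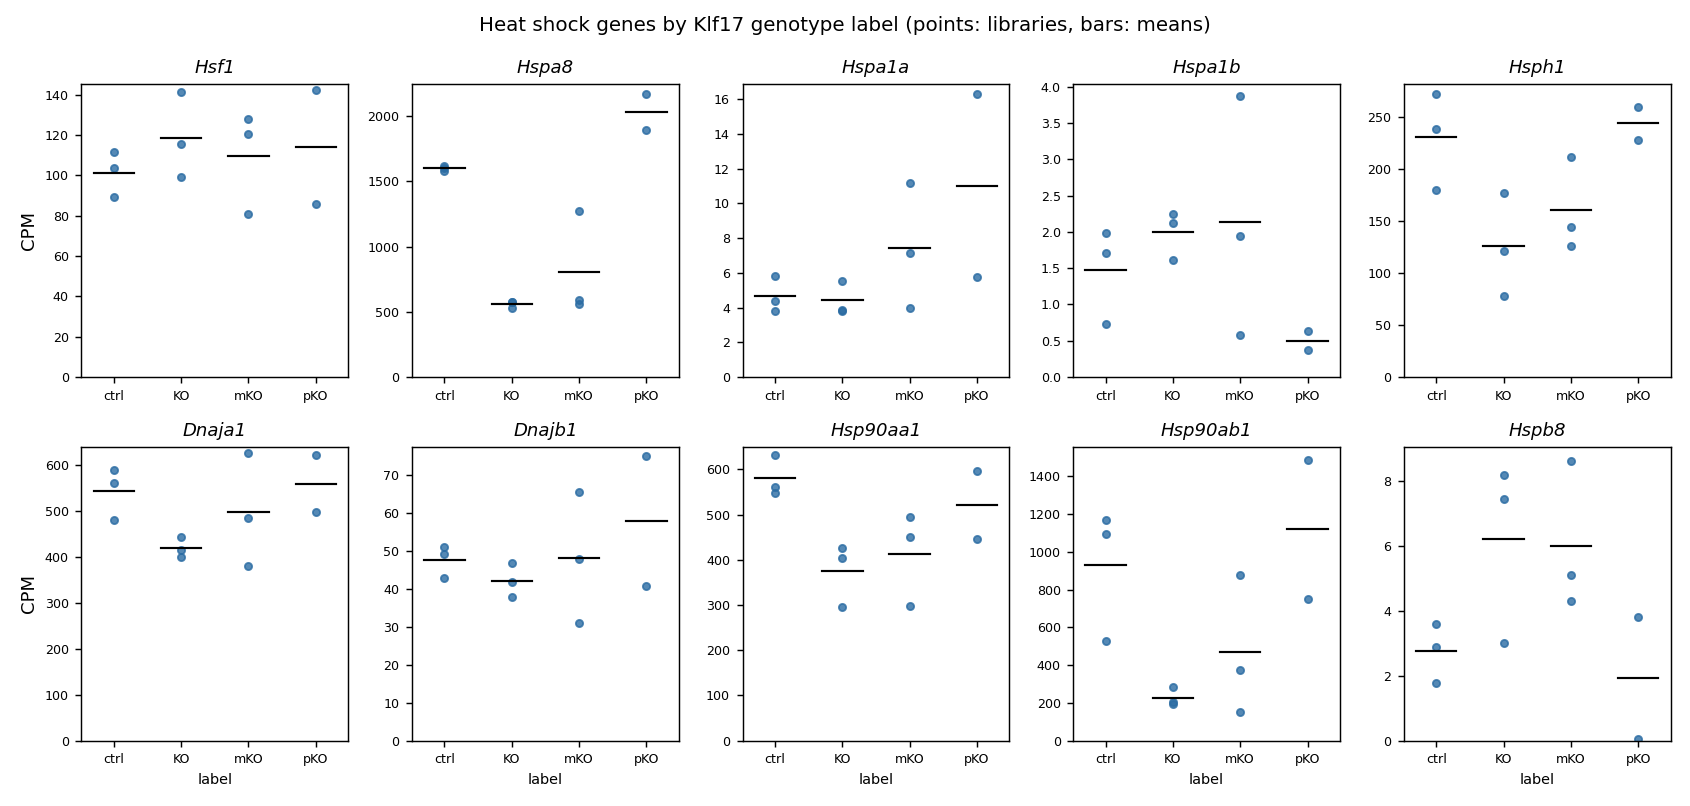
Each panel plots CPM of 1 gene on a y axis that starts at 0 against the genotype label on the x axis; points are libraries and bars are means. For Hspa8 the 3 ctrl libraries sit near 1601 CPM and the 3 KO libraries near 559.7, with mKO replicate 2 between them and the other mKO libraries beside KO.

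Of the other 8 members, 3 had KO libraries that did not overlap with ctrl but were not called. Hsph1 held 179.8, 239 and 272 CPM in ctrl and 78.1, 121 and 177 in KO (log2 change -0.88 with SE 0.32, adjusted p = 0.0932), Hsp90aa1 547, 632 and 561 and 295, 404 and 425 (log2 change -0.63, adjusted p = 0.148), and Dnaja1 479, 589 and 560.4 and 414, 442 and 399 (log2 change -0.38, adjusted p = 0.372). All 3 were lower in KO by these values, and groups that do not overlap were seen for 5 members and for 36.2% of all genes. A fit of the KO and ctrl libraries alone called Hsph1 (adjusted p = 0.0442) and Hsp90aa1 (adjusted p = 0.04) too. With the mitochondrial share as a covariate the sign of Hsph1 turned, to 0.23 on the log2 scale (adjusted p = 0.929). Dnajb1, at 49.2, 50.8 and 42.7 and 46.7, 41.8 and 37.7 CPM, and Hsf1, at 89.0, 112 and 103 and 141, 115 and 99.0 CPM, overlapped between ctrl and KO (adjusted p = 0.779 and 0.667). Hspa1a, with means of 4.67 ± 1.05 and 4.42 ± 0.986 CPM, Hspa1b, with 1.48 ± 0.660 and 1.99 ± 0.340, and Hspb8, with 2.76 ± 0.906 and 6.21 ± 2.80, overlapped as well (n = 3 each). Summed over the 10 genes, KO held 1879 ± 146 CPM and ctrl 4041 ± 474. The per-kilobase ratio of Hsp90aa1 to Hsp90ab1 was 1.29 in KO and 0.535 in ctrl, without overlap.

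The mKO libraries differed widely among themselves. Hspa8 held 560.0, 1269.9 and 592 CPM, Hsp90ab1 154, 877 and 372 and Hsp90aa1 495, 449 and 297 CPM in mKO replicates 1, 2 and 3. For Hspa8, replicates 1 and 3 lay close to the KO libraries, replicate 2 lay between KO and ctrl, and all 3 were below all ctrl libraries. Groups that do not overlap were seen for 3 members, and for 13.5% of all genes. Of these members, Hspa8 and Hsp90aa1 were lower in mKO, and Hspb8 was higher, with a mean of 6.01 against 2.76 CPM in ctrl. No member was called against ctrl, where 0% of all genes rose and 0% fell (1243 genes had an unadjusted p below 0.05, and DESeq2 called 58). For Hspa8 the estimate was -0.99 on the log2 scale (SE 0.30, adjusted p = 0.616), and without mKO replicate 2 it was -1.47 and called (adjusted p = 0.0186), 1 of 110 genes called in that fit. Hsp90ab1 was not called against ctrl with all libraries (log2 change -0.99 with SE 0.47, adjusted p = 0.668).

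In the 2 pKO libraries Hspa8 held 1898 and 2168 CPM and Hsp90ab1 753 and 1487 CPM. Both Hspa8 values were above all ctrl libraries, and for Hsp90ab1 replicate 1 lay within the ctrl range and replicate 2 above it. Groups that do not overlap were seen for 2 members, and for 19.7% of all genes. Of these members, Hspa8 was higher in pKO, and the scarce Hspa1b was lower, with a mean of 0.503 against 1.48 CPM in ctrl. Again no member was called, where 0% of all genes rose and 0% fell (476 genes had an unadjusted p below 0.05, and DESeq2 called 3), with log2 fold changes of 0.34 (SE 0.32) for Hspa8 and 0.27 (SE 0.51) for Hsp90ab1. The stress-inducible Hspa1a held 5.76 and 16.3 CPM in pKO, wide apart, beside 4.39, 3.78 and 5.83 in ctrl.

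Direct comparisons between the altered genotypes, chosen after the data were seen, were made in the same fit. Against pKO, KO was lower for Hspa8 (log2 change -1.86 with SE 0.32, adjusted p = 0.0045) and Hsp90ab1 (log2 change -2.30 with SE 0.52, adjusted p = 0.0113) and for no other member, where 2.83% of all genes rose and 9.67% fell. The call of Hsp90ab1 was lost without KO replicate 3 (adjusted p = 0.0525) or pKO replicate 2 (adjusted p = 0.112, with the lone pKO library assumed to vary like the other groups), and both calls with the mitochondrial share as a covariate (adjusted p = 0.19 for Hspa8). Neither KO against mKO nor mKO against pKO called any of the 16694 genes (2220 and 1919 at an unadjusted p below 0.05, and 405 and 164 called by DESeq2). Some alternatives did call members. For KO against pKO, 1 of 13 called Hsph1 lower and 1 of 13 called Hspb8 higher. The log2 fold change of Hspb8 ran from 0.70 to 6.80 over these alternatives, and its pKO libraries held 0.0488 and 3.80 CPM. For mKO against pKO, Hspa8 was lower without the low-count filter (adjusted p = 0.042), by DESeq2 (adjusted p = 0.0374) and without mKO replicate 2 (adjusted p = 0.0084), as was Hsp90ab1 in the last of these (adjusted p = 0.026). For KO against mKO, Hsp90ab1 was lower without the low-count filter (adjusted p = 0.0345) and without mKO replicate 1 (adjusted p = 0.0325). For Hspa8 the difference of KO from mKO was -0.53 (SE 0.29, adjusted p = 0.449).

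Chaperone partners were lower in KO too where they were called, with 1 exception. Among 17 HSP90 co-chaperones 4 fell and none rose against ctrl (all genes 1.82% and 6.31%, as for each list here), with Ttc4, an HSP90-binding adaptor, at 44.2 ± 2.92 to 7.63 ± 4.01 CPM (log2 change -2.53, adjusted p = 0.00728) and Rpap3, a scaffold of the R2TP complex, at 185 ± 30.1 to 60.7 ± 6.95 CPM (log2 change -1.61, adjusted p = 0.0113). Of 27 HSP70 co-chaperones and J proteins 5 fell, including Dnajb14 from 338 ± 40.2 to 131 ± 33.8 CPM (log2 change -1.37, adjusted p = 0.0138) and Bag5, a nucleotide exchange factor, from 92.0 ± 11.9 to 35.6 ± 8.85 CPM (log2 change -1.37, adjusted p = 0.0178). For TRiC and prefoldin 5 of 14 fell (3 with DESeq2 size factors), with Cct4 at 301 ± 24.4 to 99.7 ± 8.53 CPM (log2 change -1.59, adjusted p = 0.0113) and Cct3 at 534 ± 102 to 221 ± 44.8 CPM (log2 change -1.27, adjusted p = 0.0245). Of 9 organelle genes 1 fell, mitochondrial Hspa9, from 432 ± 97.3 to 178 ± 39.7 CPM (log2 change -1.27, adjusted p = 0.0302). The exception was Hsf2, which rose from 7.48 ± 1.48 to 24.7 ± 4.62 CPM (log2 change 1.72, adjusted p = 0.0264), 1 of 7 HSF and HSF-binding genes. Medians of the log2 fold change were -0.85 for the HSP90 co-chaperones, -0.63 for the HSP70 co-chaperones and J proteins and -0.76 for TRiC and prefoldin. They were -0.16 for the organelle genes, -0.05 for the other cytosolic HSP70 genes, 0.53 for HSF and HSF-binding genes and 1.18 for 5 small heat shock protein genes, of which none was called, beside -0.28 for the 10 members and 0.05 over all genes. Every one of these list calls was absent without KO replicate 2, where no gene was called.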

How the data were processed

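The SLAM-seq libraries of 10 oocyte and window groups (30 libraries) and of 4 genotype labels (11 libraries) were used. The authors deposited gene counts as 2 tables, per the file headers. Among the window counts, 1 damaged record holds a fraction and was left out; for it the column of 90-96hpi replicate 3 is recorded as deposited expected counts and was rounded. Per the submitters' processing notes, Trim Galore 0.6.10, STAR 2.7.10a and SAMtools 1.12 were used with mm10/GRCm38. The counting tool, strand setting and any selection of T-to-C reads are not given in the sources used here, so a count may hold old as well as newly made RNA.

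Counts were filtered (filterByExpr, minimum count 10, minimum total 15), scaled by TMM and tested with edgeR 4.0.16 (R 4.3.3) quasi-likelihood fits over all groups of a table, with Benjamini-Hochberg adjustment over all tested genes and a threshold of 0.05. CPM are TMM-scaled. DESeq2 1.42.0, other scalings, no filter, fits of 2 groups alone, a replicate block and leaving out each library were alternatives. On simulated data, 59% of genes changed 2-fold and 94% of those changed 4-fold were recovered for 0-6hpi against MII (15258 genes), and 6% and 60% for KO against ctrl (16162 genes). Only 100 genes were changed at each fold, and all others were left equal between groups. The real comparisons called many more genes, so these shares are not the sensitivity of the real tests. The changed genes were drawn only from those above a minimum mean expected count, so these shares do not cover scarce genes such as Hspa1b. Replicates correlated at 0.976 or more in the windows and 0.913 or more in the genotypes.

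The members and lists were chosen with earlier results of these data known. Named genes are the members, Klf17 as a check, up to 2 called genes per list and comparison with the smallest adjusted p, and the 2 genes most like each member. Chromatin accessibility and embryo-number libraries were not used here.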

Additional observations from a re-analysis of the deposited data

How the results depend on the processing

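Over the 9 steps 41 of the member tests were called, and 39 to 44 when 1 library was left out; over the 4 longer spans 34 were called, and 33 to 35. Total count scaling moved the median log2 fold change of all genes, for example from -0.12 to 0.28 at 24-30hpi and from -0.19 to -0.66 at 48-54hpi. Under it, Hsp90ab1 turned to 0.25 at 24-30hpi, Hsp90aa1 from 12-18hpi to 30-36hpi to 0.41 and Dnajb1 from MII to 90-96hpi to 0.37 on the log2 scale; with 1 library left out, Hsp90aa1 over the same span ran from -0.21 (without 30-36hpi replicate 3) to 0.36 (without 12-18hpi replicate 3). The causes were not tested.

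For KO against ctrl, 2 members were called, 4 in a fit of these 2 groups alone, 0 with the mitochondrial share as a covariate (added after seeing the data) and 0 to 2 with 1 library left out. For mKO against ctrl, 0 members were called and 0 to 1 with 1 library left out, and for pKO 0 throughout.

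Labels share replicate numbers, but same-numbered libraries correlated in their deviations from group means at -0.0719 to 0.164 in the windows (4 of 135 pairs over 0.1) and -0.0504 to 0.322 in the genotypes (6 of 15). Differently numbered libraries reached at most 0.131 in the windows (1 of 270 over 0.1) and 0.149 in the genotypes (3 of 30). As not every same-numbered pair passed 0.1, the numbers were not taken to pair libraries, though in the genotypes same-numbered ones had the higher median (0.0864 against -0.0471). With a replicate block, 41 member tests were called over the steps, 34 over the spans, 3 for KO, 0 for mKO and 0 for pKO.

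The promoter core before the start only was held by 4 instead of 5 of 6 genes, and the 3-unit form by 0 instead of 1. Few reads limit Hspa1a, Hspa1b and Hspb8 in most windows.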
